A study of Homo sapiens with 3 samples.

Results

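VCP, UFD1 and NPLOC4 encode the p97 segregase and its ubiquitin-binding adaptor pair, and UFSP2, UFM1, UFL1, UFC1, DDRGK1 and CDK5RAP3 encode proteins of UFMylation. These 9 genes were examined for peaks of histone H3 acetylated at lysine 27 (H3K27ac), which marks promoters and enhancers in use, out of 19974 protein-coding genes on chromosomes 1 to 22 and X. The set was put together because UFSP2 and UFD1 carried some of the highest-ranked peaks of both H3K27ac lists and because VCP carried a peak in the control list only. The values of those 3 genes at their gene ends therefore chose the set and are given as a description.

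The data were CUT&Tag peak lists from A2780, an ovarian carcinoma cell line, in which a transposase tethered to antibody-bound chromatin tags the DNA beside the mark. There was 1 library for each of 3 groups. The BPP library was H3K27ac in cells given the BPP peptide, described in the series design as a competitor for the site at which BIN2 is phosphorylated. For the CTR library the same mark was profiled in control cells, whose treatment the labels do not state. The IgG library was made with a non-specific antibody from A2780 cells and shows background. A TAT peptide appears in the design as the comparator in RNA-seq, and the labels of these 3 libraries do not mention it. On chromosomes 1 to 22 and X the lists held 17841 BPP peaks, 14836 CTR peaks and 7701 IgG peaks. Read depth is unknown, and no difference between libraries had a replicate check, so no p-value was computed. Each fold and −log10 q printed is the authors' own value. They describe a peak within its own list, and a difference between the lists is not read as a change. A place without a listed peak may have fallen just short of the caller's threshold. Of 9 ovarian and epithelial marker genes, KRT8 and KRT18 had a peak within 1 kb of a gene end in both H3K27ac lists and MSLN in BPP only, while PAX8, EPCAM, MUC16, WT1, CDH1 and SOX17 had none in any list. At KRT8 the strongest such peak of BPP (chr12:52896256-52896630) did not overlap that of CTR (chr12:52949527-52949878). None of 6 leukocyte, fibroblast and endothelial markers had a peak within 1 kb of a gene end. The ovarian and epithelial markers thus numbered 3 of 9 in BPP (33.3%) and 2 of 9 in CTR (22.2%). Among all protein-coding genes the shares were 30.6% and 31.2%. Nothing about the identity of the cells is read from these few markers.

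VCP, also called p97, is a hexameric ATPase that pulls ubiquitylated proteins out of membranes, complexes and chromatin and feeds many of them to the proteasome. The UFD1 and NPLOC4 proteins form the adaptor that brings such substrates to it, among them misfolded proteins of the endoplasmic reticulum. UFMylation attaches the small ubiquitin-like protein UFM1 to lysines, above all at ribosomes on the endoplasmic reticulum. UFC1 carries activated UFM1, and the ligase UFL1 works with the membrane adaptor DDRGK1 and with CDK5RAP3. The protease UFSP2 removes UFM1 from its targets.

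A gene-end peak is a peak that overlaps the 1 kb on either side of the lower-coordinate or the higher-coordinate end of a RefSeq gene. In both H3K27ac lists 5 of the 9 genes had one, namely UFD1, NPLOC4, UFSP2, UFL1 and UFC1. Another 3, VCP, UFM1 and DDRGK1, had one in CTR only, none had one in BPP only, and CDK5RAP3 had none in any list. Among all protein-coding genes the shares were 23.6% for both lists, 7.03% for BPP only and 7.57% for CTR only. In single lists, 5 of the 9 genes were marked in BPP and 8 in CTR, where all protein-coding genes gave 30.6% and 31.2%. UFC1 was the single gene with an IgG gene-end peak, against 2.13% of protein-coding genes. Since gene-end peaks chose part of the set, nothing is read from these counts.

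**Figure D1:**
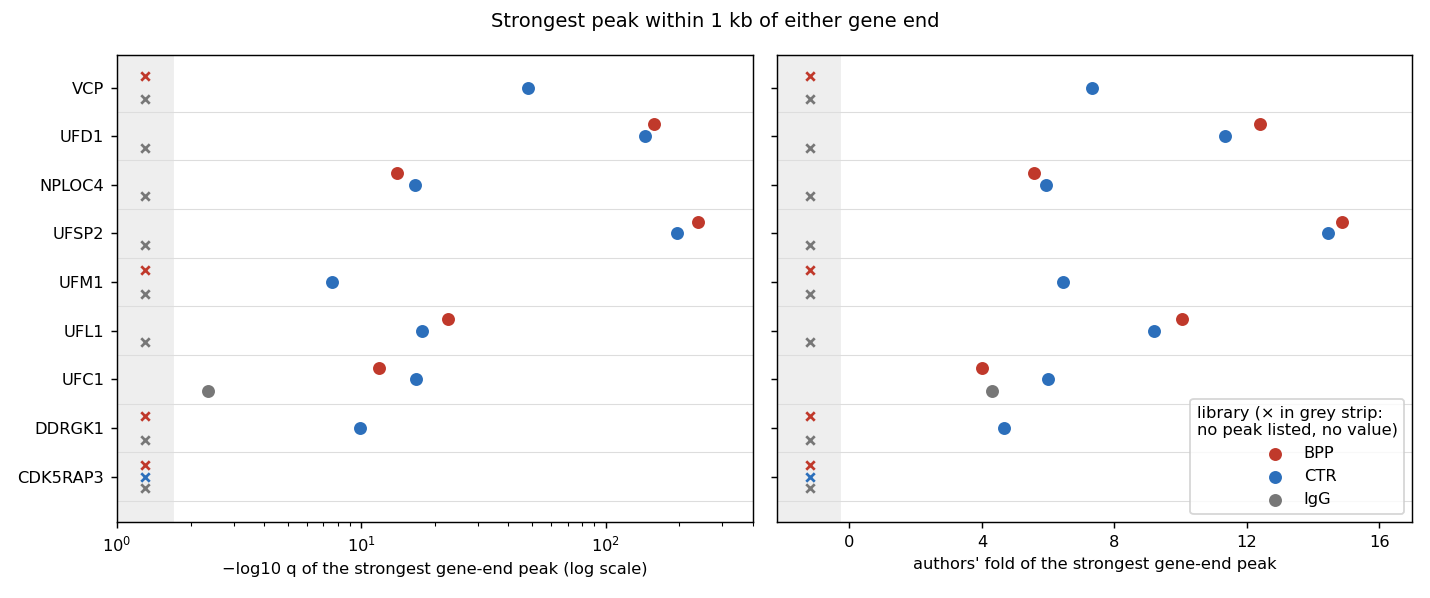
The authors' −log10 q (left, log scale) and fold (right) of the strongest peak within 1 kb of either end of each of the 9 genes, in the BPP (red), CTR (blue) and IgG (grey) lists. A cross in the grey strip marks a list with no such peak and has no value. For UFC1 the BPP and IgG points are from the higher-coordinate end and the CTR point is from the lower-coordinate end. UFSP2 and UFD1 lie farthest to the right in both H3K27ac lists, and VCP, UFM1 and DDRGK1 have a CTR point and no BPP point.

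The ATPase gene VCP had no gene-end peak in BPP and a single one in CTR. The CTR peak (GRCh38, chr9:35071665-35072669) was 1005 bp wide, with a fold of 7.33 at a −log10 q of 48.1, and ranked 299 of 14836 by −log10 p. It covered the RefSeq start site of VCP, and its summit lay 588 bp downstream of the start, inside the gene. No BPP peak overlapped the VCP span, and the nearest one lay 6.73 kb beyond the higher-coordinate end. VCP was chosen for this peak, so its presence in CTR alone is a description.

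The neighbouring start site was marked in both lists. FANCG, a gene of the Fanconi anaemia pathway, lies beside VCP, and its start was covered by the nearest BPP peak (chr9:35079355-35080039, fold 4.97, −log10 q 14.7) and by a CTR peak (chr9:35079346-35080088, fold 5.60, −log10 q 14.8). The whole BPP peak lay within the CTR peak, and the summits were 60 bp apart. The control list also held a weaker peak of fold 4.66 on the other side of VCP, 10832 bp from its lower-coordinate end and 34123 bp from the nearest BPP peak. The nearest IgG peak was 616.2 kb from VCP.

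The promoter of VCP is shown because the peak listed in CTR alone covers its start. In this and the later promoters, taken from RefSeq on GRCh38.p14, the sequence runs from 250 bases before the start site to 50 bases from it onwards, on the strand of the gene. Capitals mark matches, on either strand, to any of 9 motif words searched: the CCAAT box (CCAAT), the GC box (GGGCGG), the ETS core (CCGGAA), the cyclic AMP response element (TGACGTCA), the E-box (CACGTG), the TATA word (TATAAA), the NRF1 and YY1 consensus words and the ER stress response element, which contains a CCAAT box. The VCP promoter is chr9:35072576-35072875 on the minus strand.
VCP: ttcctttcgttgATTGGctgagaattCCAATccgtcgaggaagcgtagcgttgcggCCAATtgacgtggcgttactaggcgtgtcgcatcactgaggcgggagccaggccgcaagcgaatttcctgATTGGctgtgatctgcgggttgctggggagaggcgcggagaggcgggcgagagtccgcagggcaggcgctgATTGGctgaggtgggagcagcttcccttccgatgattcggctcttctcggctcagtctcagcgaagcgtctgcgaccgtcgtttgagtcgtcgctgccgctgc
It held 5 CCAAT boxes, 3 of them read on the opposite strand as ATTGG, and no other searched word. At least 1 CCAAT box was found in 34.6% of the 22132 promoters of protein-coding genes in the table, and 5 or more in 0.371%. The CTR peak covered 94 of the 300 bases, at the end nearest the gene. A match is a description of the letters and not evidence of a bound factor.

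UFD1, the adaptor subunit that binds ubiquitin chains, had 1 of the strongest peaks of either list at its higher-coordinate end. The BPP peak (chr22:19479190-19479814) had a fold of 12.4 at a −log10 q of 158.0 and ranked 38 of 17841. The CTR peak (chr22:19478613-19479812) had a fold of 11.3 at a −log10 q of 144.4 and ranked 51 of 14836. The summits were 1 bp apart, and 623 bp were common to both, which was 99.7% of the BPP peak and 51.9% of the CTR peak. The CTR peak thus reached further into UFD1. The start of CDC45, a subunit of the replicative helicase, lay 3 bp from the BPP summit and 2 bp from the CTR summit, so the peak cannot be assigned to UFD1 alone.

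Away from this end the UFD1 region held weak peaks, with folds from 3.40 to 4.41. Inside UFD1 there was a BPP peak (fold 3.40, −log10 q 4.09), and a CTR peak of fold 3.41 lay 5551 bp beyond the lower-coordinate end. The nearest peaks of the other list were 11291 bp and 11101 bp from them. Near the start of MRPL40, a mitochondrial ribosomal protein gene, the BPP peak began at the base after the one where the CTR peak ended, so the 2 peaks abutted without overlapping. Another pair, 19.2 kb beyond the higher-coordinate end, overlapped by 231 bp.

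NPLOC4, the partner of UFD1, was marked in both lists at 2 places, and neither was among the strongest peaks. Near its higher-coordinate end the BPP peak (chr17:81636186-81636859) had a fold of 5.56 at a −log10 q of 14.0, and the CTR peak (chr17:81636007-81636867) had a fold of 5.92 at a −log10 q of 16.5. The BPP peak lay wholly inside the CTR peak, 253 bp short of the gene end. The annotated span of TSPAN10, a tetraspanin gene, begins beyond that end, 337 bp from the BPP peak and 329 bp from the CTR peak. The listed RefSeq start site of TSPAN10 lay further off, 5589 bp from the BPP summit and 5632 bp from the CTR summit.

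The other shared place in NPLOC4 lay inside the gene, over an alternative start site in the RefSeq table. The BPP peak there (chr17:81577223-81578198) had a fold of 2.78 at a −log10 q of 4.63, and the CTR peak (chr17:81577218-81578084) had a fold of 3.38 at a −log10 q of 5.98. They shared 862 bp. These were low values for either list, at 83.0% of the BPP list and 63.6% of the CTR list counted from the strongest peak. The promoter at this start, chr17:81577384-81577683 on the minus strand, is shown because both peaks cover all 300 bases of it.
NPLOC4: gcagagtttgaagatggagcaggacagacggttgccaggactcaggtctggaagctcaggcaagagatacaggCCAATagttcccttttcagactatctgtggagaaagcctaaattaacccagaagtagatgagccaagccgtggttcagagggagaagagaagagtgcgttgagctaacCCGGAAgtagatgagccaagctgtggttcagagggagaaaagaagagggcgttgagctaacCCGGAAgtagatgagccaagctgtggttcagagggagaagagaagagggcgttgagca
It held 2 ETS cores, found at least once in 21.2% of protein-coding promoters and at least 2 times in 5.49%, and 1 CCAAT box. A stretch of 52 bases occurs in it as 2 exact copies, whereas no exact repeat in the other 7 promoters of these genes exceeded 12 bases. How reads from these copies were placed was not tested. The other start of NPLOC4 in the table lay further downstream, 10.4 kb from the nearest peak of any list, and its promoter held none of the searched words.

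In BPP alone NPLOC4 had a further peak inside the gene (chr17:81580094-81580595, fold 3.49, −log10 q 9.18), 2010 bp from the nearest CTR peak. Of 6 BPP peaks over NPLOC4 or within 20 kb, 2 overlapped a CTR peak, and of 3 CTR peaks 2 overlapped a BPP peak. The BPP peaks outside the gene had folds from 2.53 to 4.05, and the 1 CTR peak there had a fold of 3.33. The BPP peak of fold 4.05 (chr17:81642150-81642541) covered the listed start site of TSPAN10.

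UFSP2, the UFM1 protease, had the highest fold of the 9 genes in both lists. Its BPP peak (chr4:185425446-185426424) had a fold of 14.9 at a −log10 q of 237.6 and ranked 22 of 17841. Its CTR peak (chr4:185425505-185426430) had a fold of 14.5 at a −log10 q of 195.4 and ranked 27 of 14836. In each list 2 gene-end peaks had a higher −log10 q. Both peaks covered the start site, with 920 bp in common and summits 22 bp apart, upstream of the start. The promoter of UFSP2, chr4:185425915-185426214 on the minus strand, is shown as the most strongly marked promoter of the set.
UFSP2: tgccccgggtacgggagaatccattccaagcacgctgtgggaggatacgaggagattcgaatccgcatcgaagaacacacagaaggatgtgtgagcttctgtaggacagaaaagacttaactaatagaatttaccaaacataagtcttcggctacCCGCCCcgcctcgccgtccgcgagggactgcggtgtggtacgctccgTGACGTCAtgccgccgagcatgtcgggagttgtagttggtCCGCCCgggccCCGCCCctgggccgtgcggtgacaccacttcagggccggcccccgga
It held a complete cyclic AMP response element, which 2.26% of protein-coding promoters held, and 3 GC boxes, which 56.3% held at least once. The nearest IgG peak was 449.2 kb from UFSP2.

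At the opposite side of UFSP2 both lists had a peak over the start of ANKRD37, an ankyrin repeat gene whose span overlaps that end, beside LRP2BP. The BPP peak (chr4:185396266-185397230) had a fold of 4.59 at a −log10 q of 7.95, and the CTR peak (chr4:185396085-185397000) had a fold of 8.17 at a −log10 q of 22.9. Within their own lists they stood at 42.0% and 7.05% counted from the strongest peak. Their summits were 582 bp apart, the widest gap among the 15 overlapping pairs of the 9 regions. A weak pair lay inside UFSP2, with folds of 5.24 in BPP and 4.06 in CTR.

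UFM1, the modifier itself, had 1 peak in CTR and none in BPP within the gene or 20 kb of it. The CTR peak (chr13:38349605-38350125) had a fold of 6.46 at a −log10 q of 7.59, covered the start site and had its summit 170 bp upstream of it. The nearest BPP peak lay 1348 kb from the peak, and the nearest IgG peak 394 kb. The CTR peak ranked 6798 of 14836, and of the 1001 CTR peaks within 500 ranks of it 589 (58.8%) overlapped a BPP peak. A CTR peak of this rank that no BPP peak overlapped was therefore common. This share counts peaks at any place and does not measure how often the nearest BPP peak lies so far away. The promoter, chr13:38349601-38349900 on the plus strand, is shown as the other start site marked in CTR only.
UFM1: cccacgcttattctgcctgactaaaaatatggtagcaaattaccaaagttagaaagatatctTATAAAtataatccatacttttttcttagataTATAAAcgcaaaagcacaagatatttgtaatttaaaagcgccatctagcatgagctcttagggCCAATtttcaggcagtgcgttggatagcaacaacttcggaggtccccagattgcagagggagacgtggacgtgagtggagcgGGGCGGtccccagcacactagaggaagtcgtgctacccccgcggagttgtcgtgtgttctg
It was the least GC-rich of the promoters shown, at 45.0% G or C against a median of 62.3% for protein-coding promoters. It held 2 TATA words, a CCAAT box and a GC box. The 2 TATA words began at positions -188 and -156 from the start site. TATA words at any place in the 300 bases were found in 9.46% of protein-coding promoters. The CTR peak covered 296 of its 300 bases.

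UFC1, the UFM1-conjugating enzyme, was marked at both gene ends in both lists. At the lower-coordinate end the BPP peak (chr1:161153789-161154628) had a fold of 4.36 at a −log10 q of 10.2, and the CTR peak (chr1:161153908-161154403) had a fold of 5.99 at a −log10 q of 16.7. The CTR peak lay wholly inside the BPP peak, and the summits were 10 bp apart. IgG had no peak there.

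At the higher-coordinate end of UFC1 the IgG library had a peak as well. The BPP peak (chr1:161159015-161159444) had a fold of 4.01 at a −log10 q of 11.8, the CTR peak (chr1:161159030-161159889) a fold of 3.89 at a −log10 q of 8.72, and the IgG peak (chr1:161159198-161159642) a fold of 4.29 at a −log10 q of 2.36. The IgG peak shared 247 bp with the BPP peak and lay entirely within the CTR peak. Among all peaks, 1.82% in BPP and 2.32% in CTR overlapped an IgG peak. The start of USP21, a deubiquitinase gene, lay 80 bp from the IgG summit, 277 bp from the BPP summit and 223 bp from the CTR summit. The background peak and the neighbouring start both fall on this place, and their part in the H3K27ac peaks was not tested. The next pairs of shared peaks, near the starts of PPOX, a haem synthesis gene, and of B4GALT3, a galactosyltransferase gene, carried folds from 3.65 to 4.53.

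UFL1, the ligase, had a single peak in each H3K27ac list and nothing else within 20 kb. The BPP peak (chr6:96521745-96522573) had a fold of 10.03 at a −log10 q of 22.6, and the CTR peak (chr6:96521699-96522435) had a fold of 9.21 at a −log10 q of 17.8. They shared 691 bp over the start site, with summits 347 bp downstream of the start in BPP and 201 bp in CTR. The antisense long non-coding gene UFL1-AS1 begins beside UFL1, 31 bp from the BPP peak and inside the CTR peak, and the lists carry no strand. The −log10 q values of UFL1 lay well below the 158.0 (BPP) and 144.4 (CTR) of UFD1. The promoter, chr6:96521556-96521855 on the plus strand, is shown as a shared start. Its gene-end folds were the highest of the 9 genes after those of UFSP2 and UFD1.
UFL1: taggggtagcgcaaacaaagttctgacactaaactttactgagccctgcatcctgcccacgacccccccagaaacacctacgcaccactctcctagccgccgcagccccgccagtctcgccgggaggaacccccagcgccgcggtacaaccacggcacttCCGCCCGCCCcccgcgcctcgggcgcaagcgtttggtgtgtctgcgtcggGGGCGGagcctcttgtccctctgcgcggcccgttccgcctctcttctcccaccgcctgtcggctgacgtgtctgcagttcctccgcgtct
It held 3 GC boxes, 2 of which overlap each other, and none of the other searched words. With 67.0% G or C it was the most GC-rich of the promoters of these genes in the table.

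**Figure D2:**
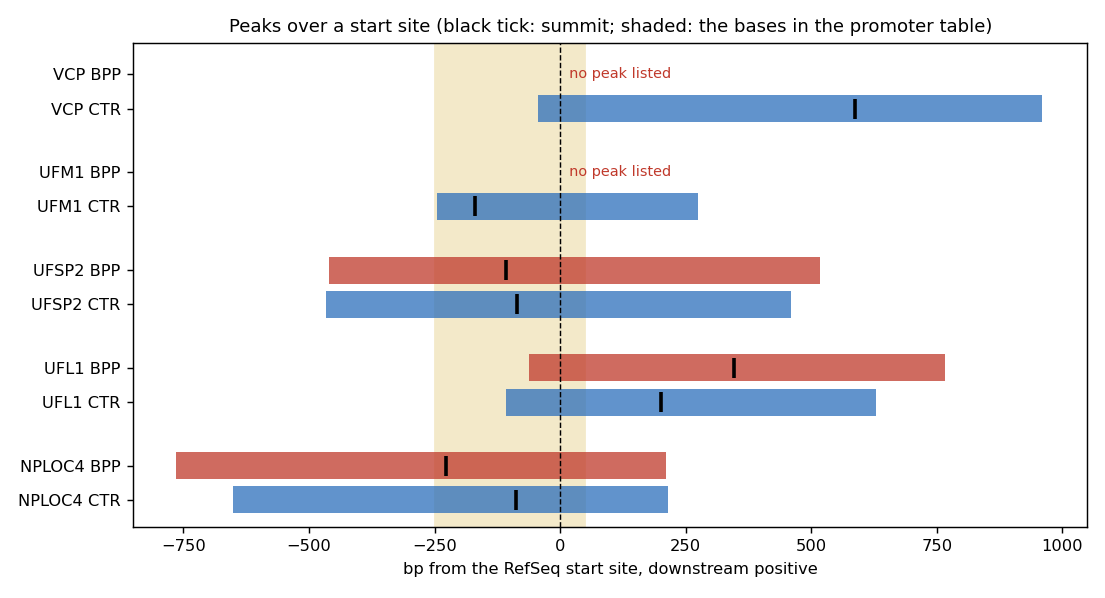
Extent of the BPP (red) and CTR (blue) peaks that cover a RefSeq start site of VCP, UFM1, UFSP2, UFL1 or NPLOC4 (the alternative start inside the gene), in bp from that start with downstream positive. Black ticks are summits and the shaded strip holds the bases of the promoter table. Summits of UFSP2 and UFM1 lie upstream of the start and those of VCP and UFL1 downstream of it.

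DDRGK1, the membrane adaptor of the ligase, had gene-end peaks in CTR only at the 1 kb window, but a BPP peak overlapped one of them. The CTR peaks were chr20:3203158-3203895 (fold 4.66, −log10 q 9.88) and chr20:3204217-3204625 (fold 3.71, −log10 q 6.03). The BPP peak (chr20:3202843-3203361, fold 3.25, −log10 q 4.34) shared 204 bp with the stronger of the 2 and ended 1321 bp before the gene end, outside the window. The CTR-only call of DDRGK1 therefore rested on the width of the window, and with windows of 2 kb the gene was marked in both lists. ITPA, an inosine triphosphate pyrophosphatase gene, starts inside the DDRGK1 span, 170 bp and 152 bp from the 2 CTR peaks. Beyond the gene a BPP peak (fold 6.53, −log10 q 20.4) contained a CTR peak (fold 5.67, −log10 q 13.2), and these were the strongest peaks of the region in either list.

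CDK5RAP3, a partner of UFL1, had no gene-end peak, and no peak of any list lay over its span. The nearest BPP peak (chr17:47982784-47983140, fold 3.31, −log10 q 3.92) lay 1003 bp beyond the higher-coordinate end, just outside the window. The nearest CTR peak lay 21.0 kb away and the nearest IgG peak 101.9 kb away. CDK5RAP3 was the single gene of the 9 with no CTR peak within 20 kb, as UFM1 was in BPP. The promoter of 1 of its start sites, chr17:47970863-47971162 on the plus strand, is shown for contrast, since the nearest peak of any list was 11.6 kb from it.
CDK5RAP3: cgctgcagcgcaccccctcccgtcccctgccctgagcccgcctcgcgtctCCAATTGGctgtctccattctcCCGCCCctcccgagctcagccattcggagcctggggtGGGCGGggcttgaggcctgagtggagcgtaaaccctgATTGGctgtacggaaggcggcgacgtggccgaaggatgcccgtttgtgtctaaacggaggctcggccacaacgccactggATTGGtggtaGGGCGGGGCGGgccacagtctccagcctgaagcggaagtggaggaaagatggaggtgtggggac
It held 4 CCAAT boxes and 4 GC boxes, with overlaps within each kind, and was 66.3% G or C. Of protein-coding promoters, 1.13% held 4 or more CCAAT boxes. The VCP promoter, marked in CTR, and this promoter, without a peak, were the 2 of the 8 with 4 or more.

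**Figure D3:**
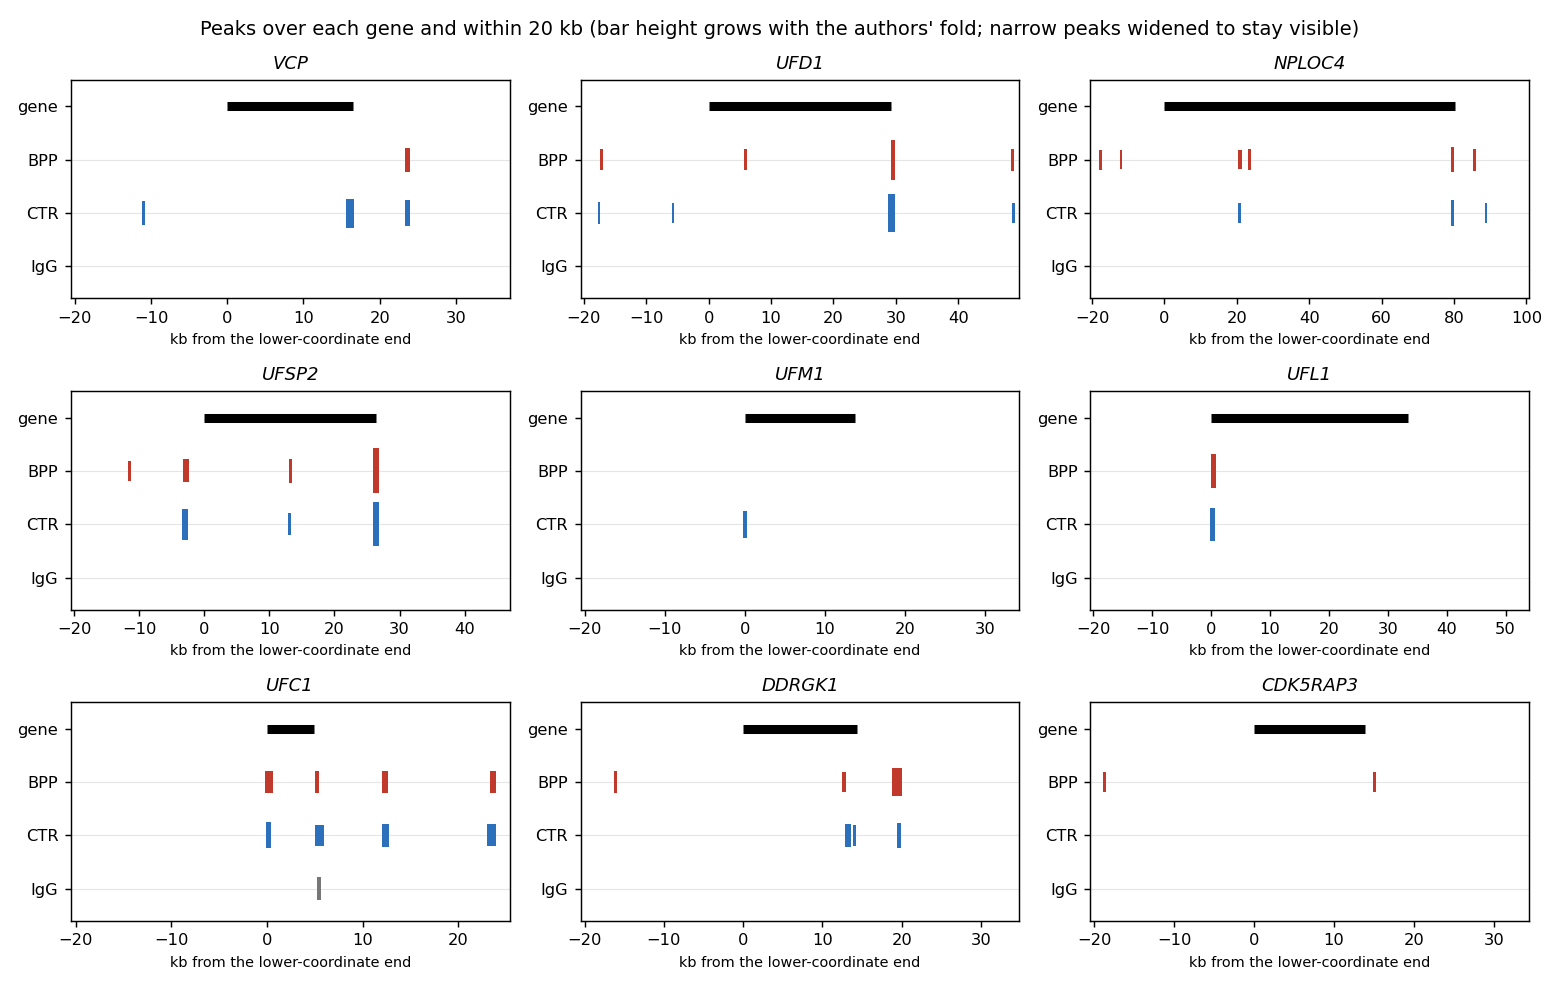
Peaks over each of the 9 genes (black bar) and within 20 kb, in kb from the lower-coordinate end of the gene, in the BPP (red), CTR (blue) and IgG (grey) lists. Bar height grows with the authors' fold and narrow peaks are widened to stay visible. IgG has 1 peak in all 9 regions, beside UFC1.

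Over the 9 genes and the 20 kb around them there were 25 BPP peaks, 22 CTR peaks and 1 IgG peak. A peak lay in the region of 8 of the 9 genes in BPP, 8 in CTR and 1 in IgG, where the shares of all protein-coding genes were 59.8%, 57.1% and 24.6%. Of the BPP peaks 15 overlapped a CTR peak, and of the CTR peaks 15 overlapped a BPP peak. Over the whole lists the shares were 50.04% and 59.6%. All 6 BPP gene-end peaks and 7 of the 10 CTR gene-end peaks overlapped a peak of the other list, where 69.9% of all BPP gene-end peaks and 69.6% of all CTR gene-end peaks did. The 3 CTR gene-end peaks without an overlap were at VCP, UFM1 and DDRGK1, the last with a BPP peak 856 bp away. In the 6 pairs at gene ends the summits lay 1 to 146 bp apart, with a median of 32.5 bp. In the 9 other pairs the summits lay 42 to 582 bp apart, with a median of 132 bp. The peaks of UFSP2, UFD1 and VCP that chose the set are among these gene-end peaks. Nothing is therefore read from these overlaps and distances.

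No other reach than 20 kb was tried. The farthest peaks counted were 19.2 kb (BPP, fold 4.01) and 19.4 kb (CTR, fold 3.43) from UFD1. The nearest not counted were 20.7 kb (BPP, fold 4.71) and 20.7 kb (CTR, fold 4.69) from UFC1. Of the 8 promoters of 6 of these genes in the RefSeq table, 3 were overlapped in BPP and 5 in CTR, where 20.6% and 24.1% of protein-coding promoters were. UFD1, UFC1 and DDRGK1 were not among those 6 genes. The promoters of UFSP2 and VCP, whose peaks chose the set, are counted here, so nothing is read from these counts.

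Other genes of the same pathways were taken from a list of 48 cofactors of VCP, factors of endoplasmic reticulum-associated degradation and UFMylation proteins. Of these, 24 had a gene-end peak in BPP (50%, 95% Wilson interval 36.4 to 63.6), 29 in CTR (60.4%, 46.3 to 73.0) and none in IgG. The intervals cover counting error only. They treat the 48 genes as a random sample, which a chosen list is not, so they are no test against all protein-coding genes. In both lists 19 were marked (39.6%), 5 in BPP only (10.4%) and 10 in CTR only (20.8%), and 14 in neither. The shares of all protein-coding genes, given above, were lower in each of these 3 classes at this setting. At a fold of at least 5 the classes held 11, 2 and 6 of the 48 genes, beside 11.3%, 4.17% and 6.35% of protein-coding genes. With the top 5000 peaks of each list they held 9, 2 and 5 of the 48, beside 10.2%, 4.40% and 5.84%. With 2 of the 48 genes, the share in BPP only was under both filters close to or below that of all protein-coding genes. The shares in both lists and in CTR only stayed above those of all protein-coding genes under both filters. No set of genes matched to the 48 for expression was compared, so the higher shares are not read as a trait of these pathways.

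Among those marked in both lists the highest −log10 q in either list was that of PLAA in CTR. This ubiquitin-binding cofactor of VCP had folds of 7.73 in BPP and 10.6 in CTR and −log10 q of 31.7 and 64.7. ODR4, the membrane partner of UFSP2, had folds of 10.3 in BPP and 8.78 in CTR. UBXN4, an endoplasmic reticulum cofactor of VCP, had folds of 6.56 in BPP and 8.41 in CTR. UBE4B, a ubiquitin chain elongation factor, had folds of 8.23 in BPP and 6.51 in CTR. RPL26, whose ribosomal protein is the main known target of UFM1, was also marked in both, with folds of 4.26 in BPP and 4.43 in CTR.

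On the side of CTR only, NSFL1C, which encodes the VCP adaptor p47, had a fold of 8.23 at a −log10 q of 25.1, and ATXN3, a deubiquitinase that binds VCP, a fold of 8.11 at a −log10 q of 19.2. The conjugating enzyme gene UBE2J1 had a fold of 5.27 and the ligase gene MARCHF6 a fold of 4.29. UFSP1, the other UFM1 protease gene, belonged to the same class with a fold of 3.21. On the side of BPP only, SPRTN, a protease for proteins crosslinked to DNA, had a fold of 5.49 at a −log10 q of 9.55, and SEL1L, the partner of the ligase HRD1, a fold of 6.35 at a −log10 q of 8.54. The UBX-domain cofactors of VCP UBXN7 and UBXN6 had folds of 4.58 and 2.78. SAYSD1, whose protein recognises UFMylated ribosomes, was marked in neither list. RPL26, UFSP1 and SAYSD1 were chosen for mention after their values were seen.

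**Figure D4:**
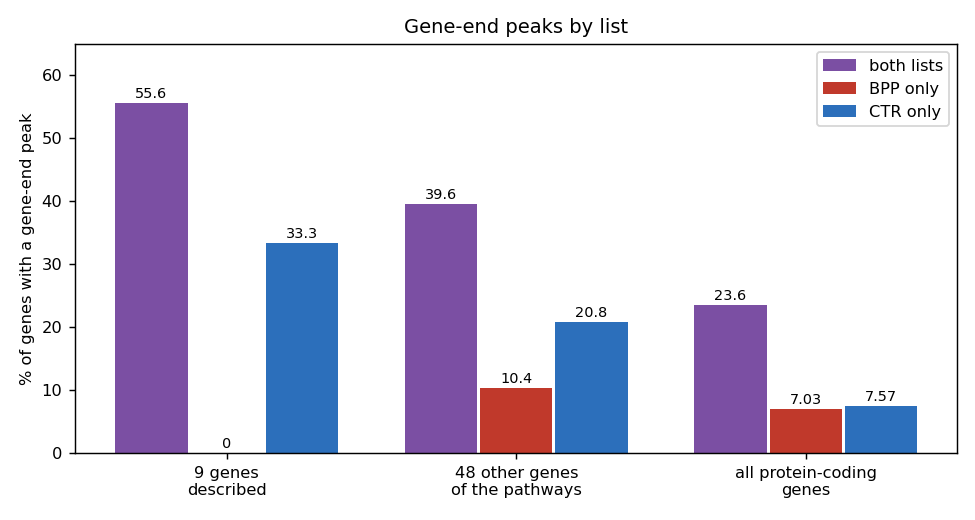
Share of genes with a gene-end peak in both H3K27ac lists (purple), in BPP only (red) and in CTR only (blue), for the 9 genes, for the 48 other genes of the pathways and for all protein-coding genes. The 9 genes were chosen partly on these peaks. The 48 genes have 39.6%, 10.4% and 20.8%, and all protein-coding genes 23.6%, 7.03% and 7.57%.

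Likeness to other genes was measured by the ranks of gene-end peaks by −log10 q, summed over the BPP and CTR lists. Nearest to UFSP2 were FLCN, the folliculin gene, 1 rank lower in each list, and EIF3B, a translation initiation factor gene that shares its peak with SNX8, at rank 1 in BPP and rank 2 in CTR. LOC124905351, at rank 2 in BPP and rank 1 in CTR, was as near as EIF3B. Nearest to UFD1 were CDC45, which shares its peak, and CDC25C, a mitotic phosphatase gene that shares its peak with FAM53C, with folds of 13.6 in BPP and 13.7 in CTR. For VCP, among genes marked in CTR and in neither other list, the nearest were NSUN2 and SRD5A1, which share 1 peak of fold 9.39 and −log10 q 53.7, 25 ranks above. These likenesses rest on 1 library each.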

How the data were processed

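CUT&Tag libraries of A2780 cells (1 each of H3K27ac after BPP, H3K27ac in CTR and IgG) were assigned to groups by their titles. The submitters' processing notes name fastp, Bowtie2 2.4.1 and deepTools 3.3.0, and the build GRCh38.p13 (hg38). How peaks were called, and whether IgG was the control in that step, is not stated in the labels. Each library has its own list, deposited by the authors. In it the score is 10 times the deposited −log10 p without its decimals, the deposited fold is a ratio to a background left unexplained, and the authors' caller supplied the −log10 of p-value and q-value. The deposited summit is an offset from the start of the peak. Reads per library, and hence precision, are unknown.

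Only chromosomes 1 to 22 and X were used, and 28 BPP, 37 CTR and 14 IgG peaks elsewhere were dropped. Genes and promoters came from RefSeq tables of GRCh38.p14, which has the same chromosome coordinates. Gene ends had windows of 1 kb and overlap counted from 1 bp. Windows of 500 bp and 2 kb, a −log10 q or fold of at least 5, the 5000 peaks with the highest −log10 p, summits in the window, and overlap of 50% of both peaks or a counterpart within 1 kb were tried as alternatives. Motif shares were planned over the whole promoter table and are printed for its protein-coding genes. The 9 genes and the lists were chosen with earlier results of these data known. The named pathway genes are the up to 4 per class with the highest −log10 q, besides those said to be chosen later. Some genes of the list are counted but not reported by name here. Analysis used Python 3.11.15, numpy 2.4.6, pandas 2.3.3 and matplotlib 3.10.9. The counting of genes by class was tested on simulated data, and overlaps were checked with bedtools 2.31.1.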

Additional observations from a re-analysis of the deposited data

How the results depend on the processing

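The classes of VCP (CTR only) and of UFD1, NPLOC4, UFSP2 and UFL1 (both lists) were the same under all 6 alternatives of window and peak filter. VCP, UFD1 and UFSP2 were chosen for these peaks, so for them the unchanged class is a description only. UFC1 became CTR only at a fold of at least 5. UFM1 dropped to neither list with the top 5000 peaks and DDRGK1 at a fold of at least 5. With windows of 2 kb DDRGK1 was marked in both lists and CDK5RAP3 in BPP only, which made 1 gene BPP only against 0. The IgG count of 1 gene fell to 0 at a −log10 q or a fold of at least 5. CTR gene-end peaks that overlapped a BPP peak numbered 4 at a fold of at least 5, against 7 of 10 without that filter. The filter also removed CTR gene-end peaks, and left 7 genes with one against 8. For the 48 pathway genes the counts for both lists, BPP only and CTR only were 19, 5 and 10. At a fold of at least 5 they were 11, 2 and 6 of 48, beside 11.3%, 4.17% and 6.35% of all protein-coding genes. With the top 5000 peaks they were 9, 2 and 5 of 48, beside 10.2%, 4.40% and 5.84%. Under both filters the shares of the 48 genes in both lists and in CTR only stayed above those of all protein-coding genes, with no matched set of genes compared. Each filter keeps fewer peaks. A fold of at least 5 keeps 5964 of 17841 BPP peaks and 6012 of 14836 CTR peaks. The share kept is smaller in BPP, so the filter is not equally strict in both lists. No paired analysis was possible because each group has 1 library. With depth unknown and 1 library per group, presence in a single list describes that list and not the cells.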
